A study of Mus musculus with 4 samples.

Results

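Cadherins, protocadherins, the catenins that bind cadherins, and nectins were followed in the dentate gyrus of the mouse hippocampus. Members were taken by gene symbol: every probe set annotated to 1 gene whose symbol is a numbered cadherin (Cdh), a protocadherin (Pcdh), an alpha or delta catenin (Ctnna, Ctnnd) or a numbered nectin, leaving out the endothelial cadherin Cdh5. This gave 32 probe sets for 21 genes, of 10833 probe sets with 1 symbol for 8251 genes in all. The samples were total RNA from dentate gyrus of young male C57BL/6J mice that were handled only. Tissue was collected at 1, 2, 4 or 6 h, counted from the final shock of mice in a parallel group, and each hour has 1 array. The shocked mice were not analysed here, and whether a sample pools several mice is not given in the sources used here.

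Cadherins are calcium-dependent adhesion proteins that join a cell to its neighbour by binding a like cadherin on the other membrane. Inside the cell their tails bind delta catenins and beta-catenin, and alpha catenins link that complex to actin. Nectins are adhesion proteins of the immunoglobulin family that anchor to actin through afadin and gather at the same junctions. In the hippocampus both families sit at puncta adherentia, the adhesive patches that flank the release sites of synapses. These are found at the large mossy fibre terminals that granule cells make on pyramidal cells.

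Values below are array intensities on a linear scale, in the order 1, 2, 4 and 6 h. A gene entered the comparisons if its mean log2 intensity reached 170.4 as an intensity, which is where the 40th percentile of the 8251 genes lies. That kept 12 of the 21 genes, beside 4951 of 8251 overall. By role, the filter kept 3 of 5 type I cadherins, 3 of 5 type II cadherins, 1 of 2 atypical cadherins, 0 of 2 protocadherins, 4 of 5 catenins and 1 of 2 nectins. Where a gene had several probe sets, the one with the highest mean was used, and further ones are described with their gene. A fold below is the highest over the lowest of the 4 values. Because each hour is 1 array, the SD given is over the 4 hours and there is none within an hour.

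Most tested members, like most genes on the arrays, differed by under 2-fold between the hours: 2 of 12 spanned more, beside 15% of all tested genes. No member passed limma's test for a trend, as no gene did (0% of 4951), and none of the tested catenins, type I or type II cadherins spanned 2-fold. Nectin2, an adhesion protein of the nectin family, was the member with the widest difference, from 377 at 1 h to 79.6 at 6 h. At the other end Ctnnd2, the neuronal delta catenin, varied by 1.06-fold over the 4 arrays. The plot of members by hour shows the 12 courses on axes of equal fold range.

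**Figure D1:**
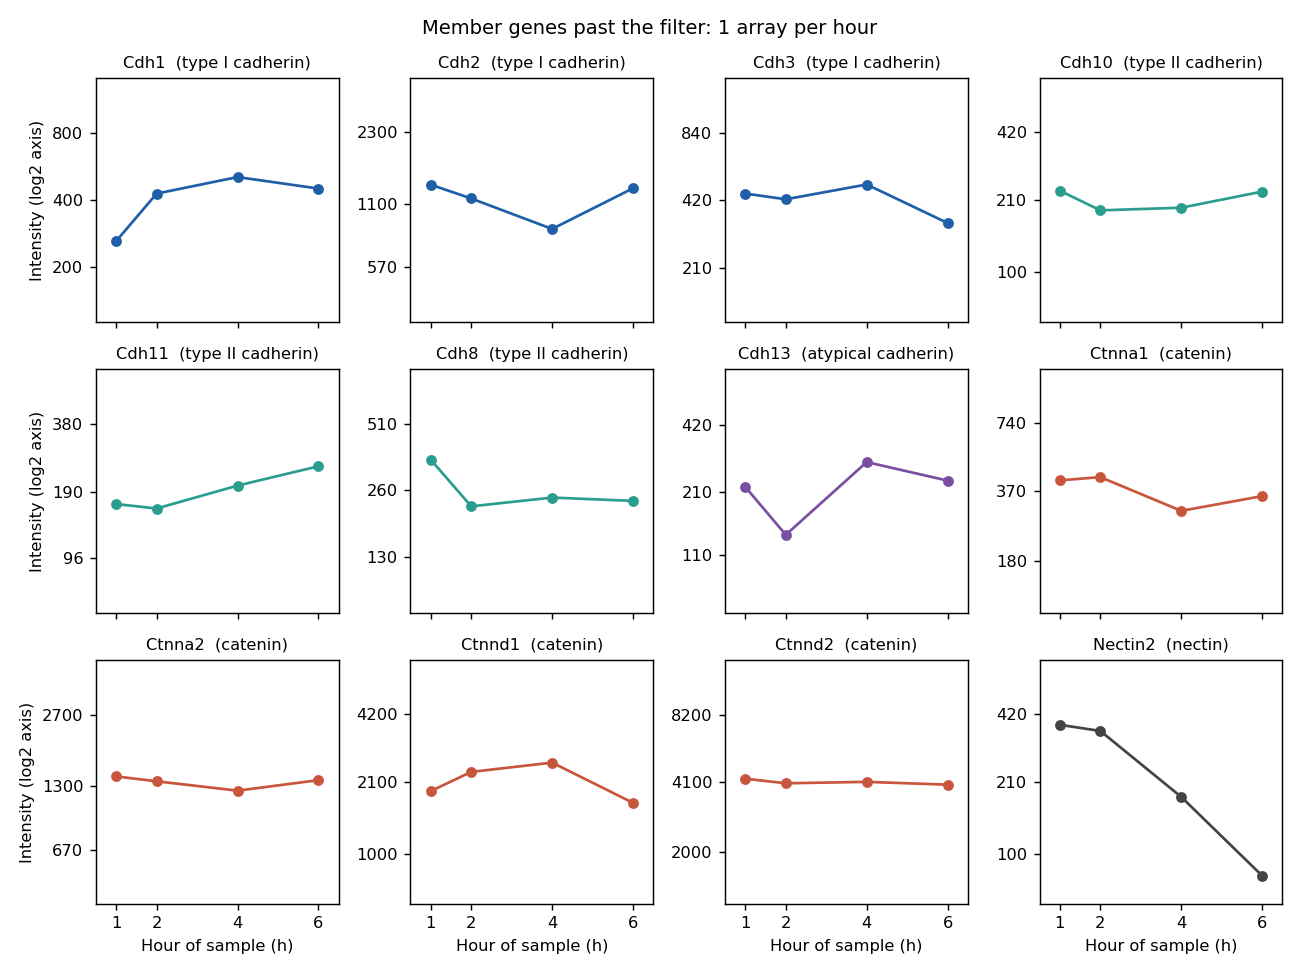
Intensity (vertical, log2 axis, each panel covering the same fold range) against the hour of the sample in h (horizontal) for the 12 member genes past the filter, 1 point per array. Nectin2 runs from 377 to 79.6 while Ctnnd2 stays between 3987 and 4239.6.

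Among type I cadherins, the classical group that binds strongly to its own kind, 3 genes were past the filter. Cdh2 encodes N-cadherin, the main classical cadherin of neurons, and read 1336, 1159, 847 and 1287. Its 4 h value lay below the other 3, which were within 1.15-fold of each other. The mean over the 4 samples was 1157 ± 219.9 (SD, n = 4).

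Cdh1, which encodes the epithelial cadherin E-cadherin, read 262, 427, 507 and 449.9. The 1 h sample was the low one, and without it the span of 1.93-fold became 1.19-fold. The mean was 411 ± 105 (SD, n = 4). Markers of choroid plexus, an epithelium of the brain ventricles, also had their lowest summed intensity at 1 h, with 2164, 4975, 5929.6 and 3091 over 6 of 10 listed genes with a probe set. Of these 6 genes, 4 were lowest at 1 h, 1 at 2 h and 1 at 6 h, 2 were past the filter and none was at 0. The 1 lowest at 6 h, Slc4a5, read 4.2, 13.4, 124.3 and 4, under the floor of 38.3 at all hours but 4 h. Aqp1 was under that floor at 1 h, with 36.6. Without the brightest, Igf2, the sums were 314, 572.5, 2975 and 570.4, where Ttr gave most of the 4 h value. Summed markers of dentate granule cells, of oligodendrocytes and of meninges and fibroblasts were lowest at 1 h as well. The part of any of these cells in the Cdh1 values was not tested.

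Cdh3, which encodes P-cadherin, read 451, 425, 495 and 333, with the 6 h value lowest. The mean was 426 ± 68.4 (SD, n = 4). A second Cdh3 probe set, whose mean was under the filter, ran the other way at the end, with 176, 123, 152 and 202 and its highest value at 6 h. In the gene table no protein-coding gene lies between Cdh3 and Cdh1, and these neighbours were lowest at opposite ends of the series.

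The type II cadherins are expressed in restricted sets of neurons. Cdh8 read 355, 219, 240.1 and 232, with a mean of 262 ± 62.8 (SD, n = 4). The 1 h sample stood 1.48-fold above the next highest, and without it the other 3 values were within 1.09-fold. Cdh11, a cadherin also known from bone and mesenchyme, read 167, 159.8, 202 and 247, with a mean of 194 ± 39.8 (SD, n = 4). It was low at 1 and 2 h and highest at 6 h, whereas Cdh8, its direct neighbour among protein-coding genes, was high at 1 h alone. Of 10 meninges and fibroblast markers, all with a probe set, 6 past the filter and none at 0, 1 was highest at 6 h as Cdh11 was, 4 were highest at 2 h and 4 at 4 h. Their summed intensity was 13087, 31649, 19732 and 13805, most of it from Ptgds, and 4633, 5732, 5967 and 4893 without that gene. Their part in the Cdh11 values was not tested.

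Cdh10, a type II cadherin of the brain, was nearly level, with 230.4, 188, 193 and 228 and a mean of 210.1 ± 22.4 (SD, n = 4). Its span of 1.22-fold was wider than that of 14.6% of all tested genes and of 4.85% of the genes in the same of 4 equal groups by mean intensity. Median scaling of the arrays raised the span to 1.37-fold. Cdh13 encodes T-cadherin, which is held in the membrane by a lipid anchor and has no tail for catenins. It read 222, 135, 286 and 236, with a mean of 219.9 ± 62.8 (SD, n = 4). The 2 h sample was low, and without it the span of 2.12-fold became 1.29-fold.

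In the probe sets used, catenins were the role with the narrowest differences, from 1.06-fold to 1.51-fold over 4 tested genes. Further probe sets of Ctnna1, Ctnna2 and Ctnnd1 spanned from 1.77-fold to 2.21-fold. Ctnna2, Ctnnd1 and Ctnnd2 lie in the brightest of the 4 intensity groups, where Ctnnd1 spanned more than 77.9% of genes. Ctnnd2, found mainly in neurons and at synapses, read 4239.6, 4044, 4104 and 3987, with a mean of 4093 ± 108 (SD, n = 4). Only 0.747% of all tested genes had a smaller span, and 1.37% of those in the brightest of the 4 intensity groups. Unlike the other tested catenins, Ctnnd2 had no further probe set to compare. The 4 values were within 1.06-fold as deposited, 1.18-fold with median scaling and 1.09-fold with quantile normalization.

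Ctnna2, the alpha catenin of neurons, read 1428, 1359, 1233 and 1375 (mean 1349 ± 82.4, SD, n = 4), a span of 1.16-fold. Its other probe sets did not share this level course. A probe set past the filter read 243, 354, 315 and 437 and was highest at 6 h. Another, too dim to pass it, read 177, 169, 145 and 79.9 and was lowest at 6 h. The 3 probe sets annotated to Ctnna2 thus gave a level, a higher and a lower value at 6 h against 1 h. Whether each of them reads this gene alone was not tested.

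Ctnnd1 encodes the delta catenin that stabilises classical cadherins at the membrane. It read 1908, 2326, 2559 and 1691, with a mean of 2121 ± 393 (SD, n = 4), highest at 4 h. A second probe set, just too dim for the filter, read 170.2, 228, 129 and 154 and was lowest at 4 h. Ctnna1, the alpha catenin of most epithelia, read 411, 425, 301 and 349.8, with a mean of 372 ± 57.7 (SD, n = 4). Both Ctnna1 probe sets had their highest value at 2 h, the second with 74.7, 150.1, 87.6 and 78.

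Nectin2 is expressed by many cell types and binds nectin3 on the facing cell as well as its own kind. The probe set used read 377, 354, 179 and 79.6, with a mean of 247 ± 142 (SD, n = 4). The values at 1 and 2 h were close, and those at 4 and 6 h were lower at each step. The slope on the hour was −0.46 ± 0.11 log2 per h (SE, n = 4). By limma its p was 0.00148 unadjusted and its adjusted p was 0.999929, so the course did not pass over all genes. Without the 6 h sample the span of 4.73-fold became 2.1-fold.

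A second Nectin2 probe set, also past the filter, did not share the step from 2 to 4 h. It read 187, 156, 331 and 124, with its highest value at 4 h and its lowest at 6 h. The mean of both gave a span of 2.67-fold and a slope of −0.26 log2 per h. The 6 h array held the lowest Nectin2 value in both probe sets. The summed endothelial and mural markers were also lowest there, at 2913, 2955, 3043 and 2183 over 10 genes with a probe set, 4 of them past the filter and none at 0. Of those 10 genes, 4 were lowest at 6 h, 3 at 1 h and 3 at 4 h. Summed markers of CA field pyramidal and mossy cells, and of thalamus and habenula, were lowest at 6 h as well. The part of any of these cells in the Nectin2 values was not tested. In tissue RNA fewer cells of a type cannot be told apart from less RNA per cell.

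**Figure D2:**
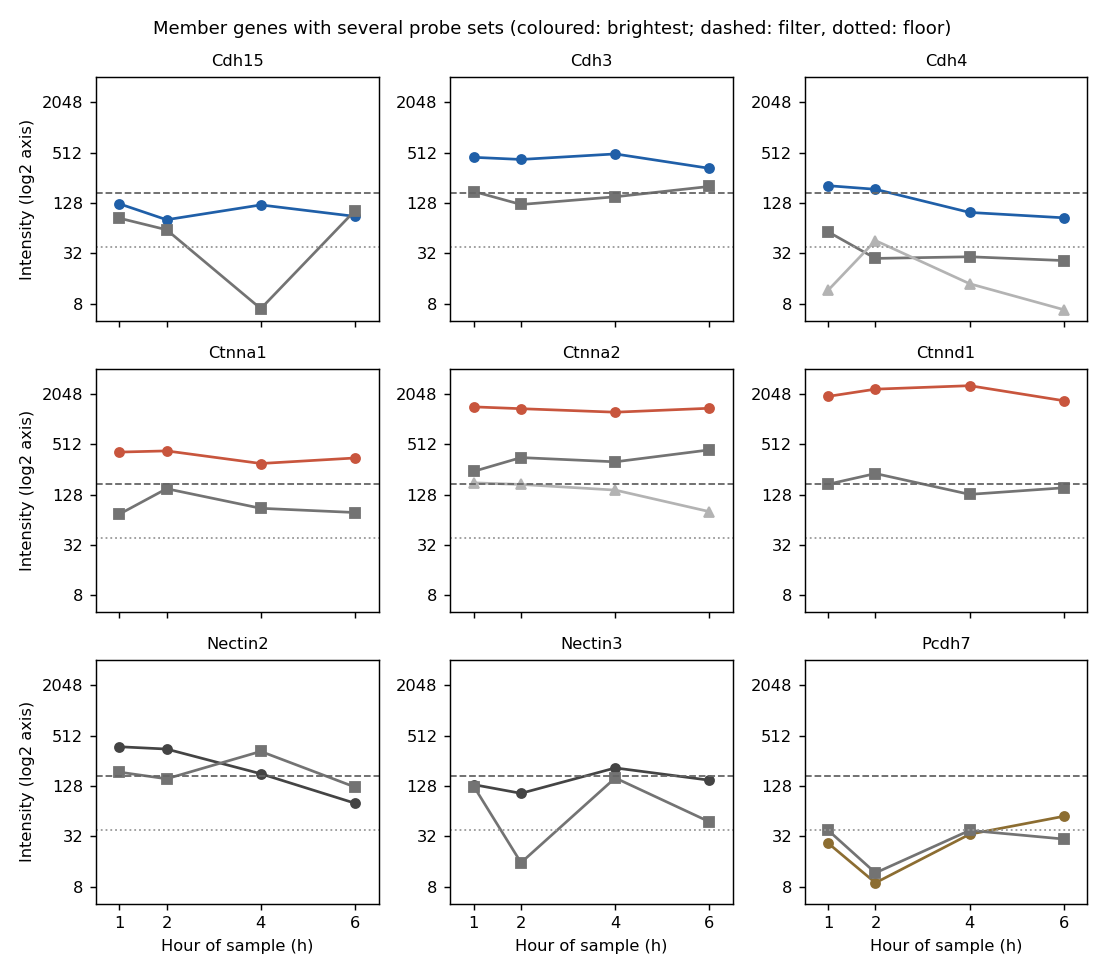
Intensity (vertical, log2 axis) against the hour of the sample in h (horizontal) for the 9 member genes with several probe sets, 1 line per probe set, with the filter (170.4, dashed) and the floor (38.3, dotted). For Nectin2 the used probe set (377, 354, 179 and 79.6) and the second (187, 156, 331 and 124) cross between 2 and 6 h.

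Separate probe sets annotated to the same gene were compared wherever a gene had at least 2 past the filter. This held for 2 members, Ctnna2 and Nectin2, and in 0 of 2 did the probe sets have their highest value at the same hour. Over all 689 genes with several such probe sets the share was 30.2%. With no filter the count was 2 of 9 members, Ctnna1 and Nectin3, where readings near the floor are included. The share over all genes was not taken without the filter, so this count has no background beside it.

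Under the filter lay 9 member genes, and 3 of them had a value above the filter intensity at some hour. Cdh9, a type II cadherin known from the synapses of granule cells on pyramidal cells, read 141, 124, 133 and 218. Its 6 h value stood 1.55-fold above the next highest, while the other hours were close. Cdh4, the retinal cadherin R-cadherin, read 206, 187, 98.9 and 85.3, with both later hours below both earlier ones. Its 2 other probe sets read 57.8, 27.9, 29.2 and 26.3, and 11.7, 45.6, 13.9 and 6.8. Each was under the floor at 3 of 4 hours and shows no course.

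Nectin3, the partner of nectins on the facing side of a junction, read 133, 105, 210.3 and 150. A second probe set read 126, 15.5, 159.7 and 47.7, and both were lowest at 2 h and highest at 4 h. At 4 h the second Nectin2 probe set was also at its highest, with 331, whereas the first was at 179. The remaining 6 genes under the filter were the muscle cadherin Cdh15, the kidney cadherins Cdh16 and Cdh6, the alpha-catulin gene Ctnnal1 and the protocadherins Pcdh7 and Pcdh12. In the probe sets used, their values ran from 8.9 to 125, and 4 of the 6 had at least 1 value at or under the floor of 38.3, so no course is read from them. A second probe set of Cdh15 read 84.4, 61.4, 7 and 104.1, and a second of Pcdh7 was under the floor at every hour.

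**Figure D3:**
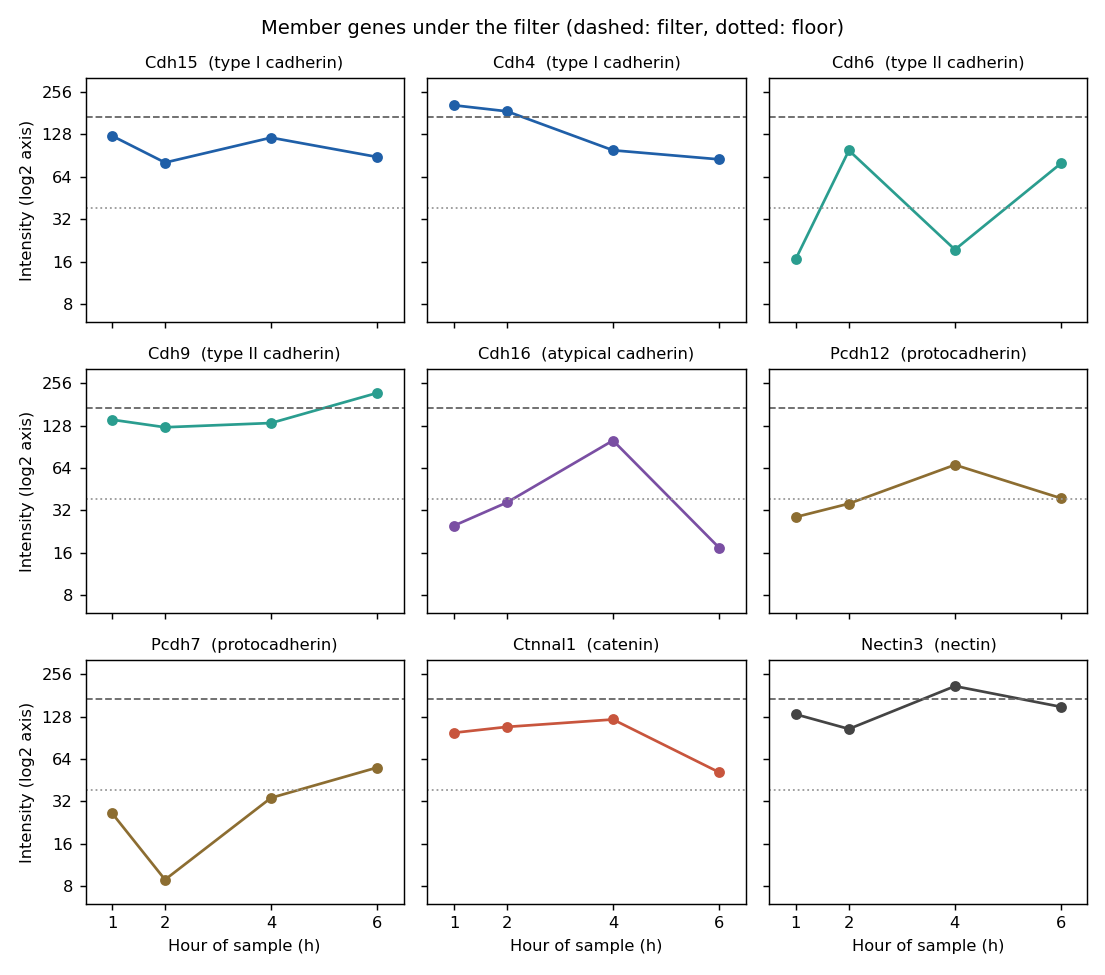
Intensity (vertical, log2 axis) against the hour of the sample in h (horizontal) for the 9 member genes whose mean lies under the filter (170.4, dashed; the dotted line is the floor of 38.3). Cdh4, Cdh9 and Nectin3 cross the filter line at some hour, and the other 6 stay under it.

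In the trend test over all genes, limma called 0 of the 12 tested members at an adjusted p under 0.05, against 0% of 4951 genes. At an unadjusted p under 0.05 there was 1 member, Nectin2, beside 100 genes overall. The next smallest unadjusted p was that of Cdh1, 0.149, with a slope of 0.13 ± 0.09 log2 per h (SE, n = 4, adjusted p = 0.999929). Slopes were positive in 4 members and negative in 8, with 49.9% positive over all tested genes. These p values set a slope over 4 arrays against an error taken mostly from other genes of like intensity (residual df 2, median prior df 10.4). An effect of the hour and of its 1 array cannot be told apart. Dentate gyrus tissue was collected at a different hour for each array, so no mouse can have been sampled at several hours. How many mice each array stands for is unknown, and differences between mice at the same hour were not measured.

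The highest value was over 2-fold above the lowest in 2 of 12 members, Nectin2 and Cdh13, beside 15% of all tested genes. Cdh13 was over 2-fold only with both its lowest sample, 2 h, and its highest, 4 h, since without the latter it spanned 1.75-fold. With median scaling, quantile normalization or an added constant Nectin2 alone was over 2-fold. The median span of the 12 members was 1.53-fold, and that of all tested genes was 1.47-fold. The share of members over 2-fold was thus near the background. In the plot of span against intensity the members lie within the cloud of all genes, with Nectin2 near its upper and Ctnnd2 near its lower edge. Nectin2 spanned more than 98.7% of all tested genes, and more than 95.6% of those in the dimmest of the 4 intensity groups, in which it falls.

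**Figure D4:**
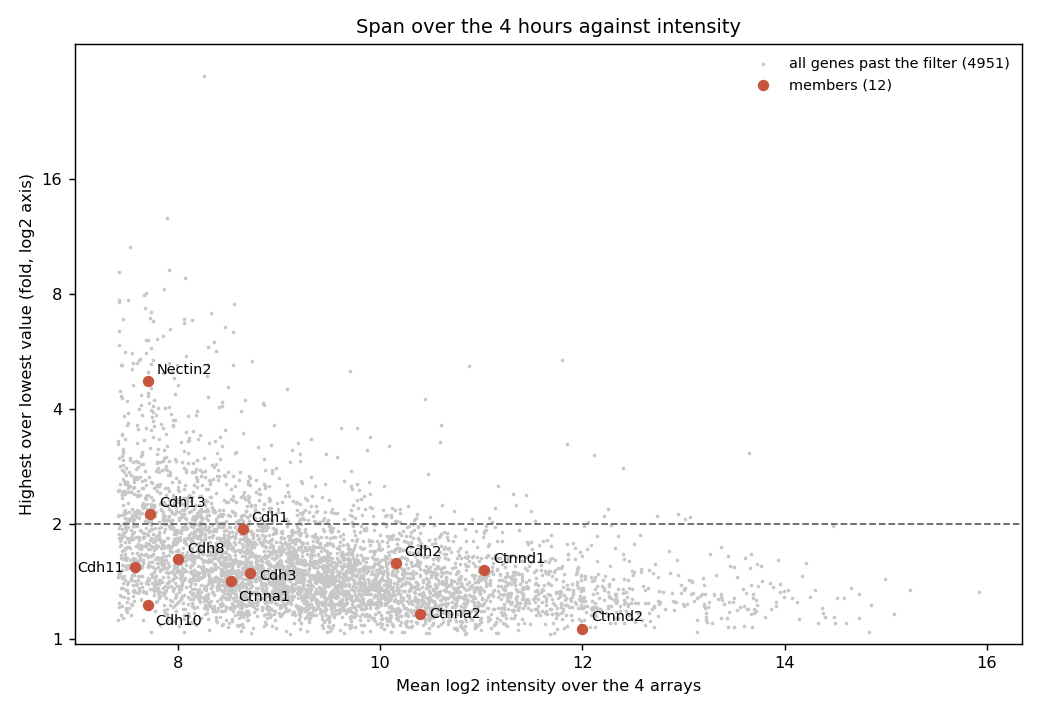
Highest over lowest value of the 4 arrays (vertical, fold on a log2 axis, dashed line at 2-fold) against mean log2 intensity (horizontal) for 4951 genes (grey) and 12 members (red), 1 point per gene. Nectin2 at 4.73-fold and Cdh13 at 2.12-fold lie above the line, and Ctnnd2 at 1.06-fold is the lowest of the 12 members.

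Values were lower at every step in 1 member, Nectin2, beside 2.4% of all genes, and higher at every step in 0 members, beside 2.65%. The highest value fell at 1 h in 6 of 12 members (Cdh2, Cdh8, Cdh10, Ctnna2, Ctnnd2 and Nectin2), beside 23.1% of all genes. In 5 of those 6 it was within 10% of the next highest value, Cdh8 being the exception. The highest value was at 2 h in 1 member (Ctnna1), beside 23.2%, at 4 h in 4 members (Cdh1, Cdh3, Cdh13 and Ctnnd1), beside 31.4%, and at 6 h in 1 member (Cdh11), beside 22.3%. Of the 4 members highest at 4 h, Cdh13 alone was so with median scaling, which moves the 4 h values by −0.14 log2 and the others by 0.04 to 0.06.

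The lowest value was at 1 h in 1 member (Cdh1), beside 24.5% of all genes. It was at 2 h in 4 members (Cdh8, Cdh10, Cdh11 and Cdh13), beside 23.2%, and these were the 3 tested type II cadherins and the atypical Cdh13. At 4 h it was the lowest value of 3 members (Cdh2, Ctnna1 and Ctnna2), beside 29.2%, and at 6 h of 4 members (Cdh3, Ctnnd1, Ctnnd2 and Nectin2), beside 23.1%. For Cdh10 and Cdh11 the 2 h value was within 1.05-fold of the next lowest, and for Cdh8 within 1.06-fold. With median scaling Cdh8, Cdh10 and Ctnnd2 were lowest at 4 h instead. Median differences of the 12 members from the mean of the other hours were 0.12 log2 at 1 h, 0.02 at 2 h, −0.06 at 4 h and −0.01 at 6 h. Over all tested genes they ran from 0.004 to 0.02.

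Partners of the cadherin and catenin complex were taken from a list of 42 genes, of which 32 had a probe set and 23 were tested. With limma 0 of 23 were called in either direction, and 0 had an unadjusted p under 0.05. Of these, 2 of 23 spanned over 2-fold (8.7%), beside 15% of all tested genes. Rhoa, a small GTPase that controls actin, read 515, 1036, 454 and 474, high at 2 h alone. Jup, which encodes plakoglobin, a close relative of beta-catenin, read 349.8, 246, 517 and 289.5, highest at 4 h. Beta-catenin itself (Ctnnb1), named after its values were seen, read 5879, 7632, 5628 and 6817, a span of 1.36-fold.

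Of 40 genes from other adhesion families, among them distant relatives with cadherin repeats that the symbol rule does not take, 18 had a probe set and 9 were tested. None was called by limma, with 1 of 9 at an unadjusted p under 0.05, beside 100 of 4951 tested genes. Over 2-fold were 2 of 9 (22.2%), beside 15% of all tested genes. Ncam2, a neural adhesion protein of the immunoglobulin family, read 239, 301, 272 and 123, lowest at 6 h. Celsr2, an adhesion receptor and one of those distant relatives, read 299, 372, 691 and 390.2, highest at 4 h. The median span was 1.43-fold for the partners and 1.58-fold for the other adhesion families, beside 1.47-fold for all tested genes.

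The 4 arrays had trimmed means of 500.3 and medians from 184.8 to 213. Pearson's r between 2 arrays, taken across genes that are not independent replicates, ran from 0.929 to 0.956. Pairs that include the 4 h array ran from 0.929 to 0.935, and the other pairs from 0.949 to 0.956. The tissue label was checked on a list of dentate granule cell markers. Of 10 genes, 6 had a probe set, 5 of them past the filter, among them the defining transcription factor Prox1 with 184, 153.5, 182 and 249. The summed granule cell markers read 5410.1, 6673, 5687 and 5979.8. Markers on lists for other cells were also read, and whether neighbouring tissue was in the samples was not tested. Those of CA field pyramidal and mossy cells summed to 8428, 8217, 9982 and 7359 over 7 of 10 genes with a probe set, 6 of them past the filter. Mossy cells are a cell type of the dentate gyrus itself. Markers of thalamus and habenula summed to 3086, 3160.5, 3197 and 2662 over 7 of 10, with 5 past the filter. Calb2 is on both lists and is the brightest gene of the thalamus and habenula list, with 1060, 1173, 1179 and 793. Sums of different lists hold largely different probe sets and are not set against each other.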

How the data were processed

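Array intensities of 12488 probe sets were deposited by the authors on a linear scale, 1 column per sample. Scanner, software and scaling steps stay unnamed, being not given in the sources used here. Precision is limited by the number of arrays. Left out were 66 array controls, 1193 probe sets with no symbol and 396 with several. Symbols came from the platform annotation, and all 21 member symbols matched a RefSeq gene table (GRCm38.p6) by gene ID. No coordinates are given because the array names no build. Lower intensities were raised to a floor of 38.3, the 20th percentile, log2 was taken, and each gene was read from its brightest probe set. limma 3.58.1 in R 4.3.3 fitted a slope on the hour over 4951 genes (residual df 2, median prior df 10.4, Benjamini-Hochberg adjustment, threshold 0.05). The fit was checked on simulated data. Members, lists and tests were chosen with earlier results of these data known. All members past the filter were named, and those under it with a value above 170.4. Of each list, 2 genes with the largest span were named, and of the members, 2 slopes with the smallest p. Alternatives changed the floor (30th percentile, or an added constant of 32), the filter (none or 60th percentile), the scaling, the probe sets, the variance prior or the samples.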

Additional observations from a re-analysis of the deposited data

How the results depend on the processing

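No member was called for a trend in any of the 13 alternatives. Over all genes limma called 0 with all 4 samples in each alternative, and between 0 and 13 when 1 sample was left out (13 without the 1 h and 3 without the 6 h sample, 0 without the 2 h or 4 h sample). Members over 2-fold numbered 1 of 12 with an added constant, beside 11.5% of all genes. They numbered 1 with median scaling (beside 15.9%), 1 with quantile normalization (beside 14.6%) and 0 of 5 with the 60th percentile filter (beside 6.39%). With no filter they were 7 of 21 (beside 32.1%), and with every probe set as its own feature 6 of 20 (beside 21.6%). With a sample left out they numbered 1 to 2, beside 7.61% to 10.7%. The highest value fell at 1, 2, 4 and 6 h in 8, 2, 8 and 3 members with no filter, in 3, 0, 2 and 0 of 5 with the 60th percentile filter, in 7, 2, 1 and 2 with median scaling, and in 6, 3, 2 and 2 of 13 with the mean of all probe sets. With a sample left out these counts ran from 6 to 7, 1 to 2, 4 to 6 and 1 to 4. For these counts by the hour of the highest value, the share over all genes was not taken. Members whose probe sets shared that hour numbered 2 of 9 with no filter and 0 to 1 with a sample left out. Here too the share over all genes was not taken. The cause of these changes was not tested, beyond the fewer or further genes that a filter admits. The members' median span ran from 0.45 log2 without the 4 h sample to 0.76 with every probe set, where that of all genes was 0.40 and 0.61. No paired analysis was possible because there is 1 group with 1 sample at each hour. With 1 array per hour and dim probe sets near the filter, a difference at 1 hour has no replicate.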

Other observations

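Beside the members, 8 probe sets name several alpha protocadherins at once, genes of a cluster whose transcripts share their last exons. They cannot be given to 1 gene, so they entered no comparison. With 14 symbols each, 3 of them read 2968, 4170.4, 3097 and 2561, then 2628, 2228, 1933 and 2041, then 611, 398, 431 and 641. Those 3 had their highest values at 2, 1 and 6 h. With 9 symbols each, 5 probe sets included one that was lower at every step (1178, 794, 684 and 488, a span of 2.41-fold). Another was highest at 6 h (188, 354, 305 and 429.9, 2.29-fold), and one more was below 38.3 on all 4 arrays. The others spanned less, 1.27-fold (219, 277.5, 266 and 263.5) and 1.46-fold (197, 151, 221 and 180).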
